A study of Mus musculus with 3 samples.

Results

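Fat cells inside a skeletal muscle can form from fibro-adipogenic progenitors (FAPs), a mesenchymal cell type of its interstitium. The expression of 10 genes that regulate adipogenesis or report on it (*Pparg*, *Cebpa*, *Cebpb*, *Cebpd*, *Klf4*, *Zfp423*, *Dlk1*, *Lepr*, *G0s2* and *Gata6*) was followed in diaphragm FAPs by single-cell RNA-Seq. The genes were chosen by name, and all 10 were found among the 32285 genes counted. FAPs were defined by a gate of at least 1 *Pdgfra* unique molecular identifier (UMI), at least 3 *Dcn* UMIs, and no UMI of *Ptprc*, *Pecam1* or *Pax7*. The gate held 5808 of 12275 cells.

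Diaphragm mononuclear cells were captured from male mice in 3 libraries, each pooling 2 animals. The WT CD library came from C57BL/6J mice kept on chow, the control diet (CD). The WT HFD library came from C57BL/6J mice given a high-fat diet (HFD) with 45% of calories from lipid. The KO HFD library came from Thbs1-/- mice on the same HFD. These mice are of the strain B6.129S2-Thbs1tm1Hyn/J, described as a knockout of the whole body and not of FAPs alone. *Thbs1* encodes thrombospondin 1, an activator of TGF-β. Both diets ran for 6 months from 2 months of age. Because the animals of a group were pooled, each group was 1 sample. No difference between libraries has a replicate check, no test was made, and every interval below is a 95% interval that covers counting error only.

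In the order WT CD, WT HFD, KO HFD, the libraries held 34312860, 31967976 and 36478779 UMIs in 4132, 3774 and 4369 cells. Values given as a set of 3 below follow this order. Gated FAPs numbered 1930, 1779 and 2099, or 46.7%, 47.1% and 48.0% of the cells, with medians of 8557, 9234 and 8427 UMIs per FAP. Any pair of libraries shared between 2 and 7 cell barcodes. Of the gated cells, 94.7% lay in clusters with a FAP marker profile, and 4.13% lay in clusters left unnamed. That profile includes *Pdgfra* and *Dcn*, which the gate also requires, so the overlap is no independent check of the gate. Of the 6338 cells in the FAP-like clusters, 836 (13.2%) lay outside the gate. Markers of other cells were not absent. The 4 monocyte markers summed to 292, 276 and 303 UMIs per 1000000 UMIs (CPM), of which *Ace* gave 235, 224 and 238, and the 3 erythroid markers to 2.17, 42.0 and 2.84 CPM. Their part in the results below was not tested. Mature adipocyte transcripts were at or near 0, with 4 UMIs of *Adipoq*, 6 of *Plin1* and none of *Cidec* over all FAPs. *Thbs1* itself was at 196, 239 and 230.0 CPM in FAPs, so the library labelled KO HFD still held *Thbs1* transcripts. Reads come from the 3′ end of a transcript, and such a tag does not check a deletion placed elsewhere in the gene.

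Adipogenesis runs as a transcriptional cascade. KLF4, C/EBPβ and C/EBPδ act early after an adipogenic stimulus and lead to PPARγ and C/EBPα, which sustain each other and switch on the genes of lipid storage. ZFP423 commits mesenchymal cells to the preadipocyte lineage, DLK1 (preadipocyte factor 1) holds preadipocytes undifferentiated, the leptin receptor receives the adipocyte hormone leptin, and G0S2 restrains the lipase ATGL on lipid droplets.

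The early regulators were abundant in diaphragm FAPs and the terminal regulators were scarce. *Klf4* was at 1030.4, 981 and 1167 CPM. *Cebpd* was at 712, 785 and 958 CPM. *Cebpb* was at 440.4, 369 and 492 CPM. *G0s2* followed at 151, 147 and 173 CPM and *Gata6* at 53.0, 44.1 and 46.1 CPM. *Cebpa*, *Zfp423* and *Dlk1* lay between 7.17 and 19.5 CPM in every library. *Lepr* and *Pparg* stayed under 3 CPM. UMIs count each captured molecule by its 3′ end, so these levels were compared between genes without a correction for length. The spread between regulators was thus far wider than that between libraries.

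**Figure D1:**
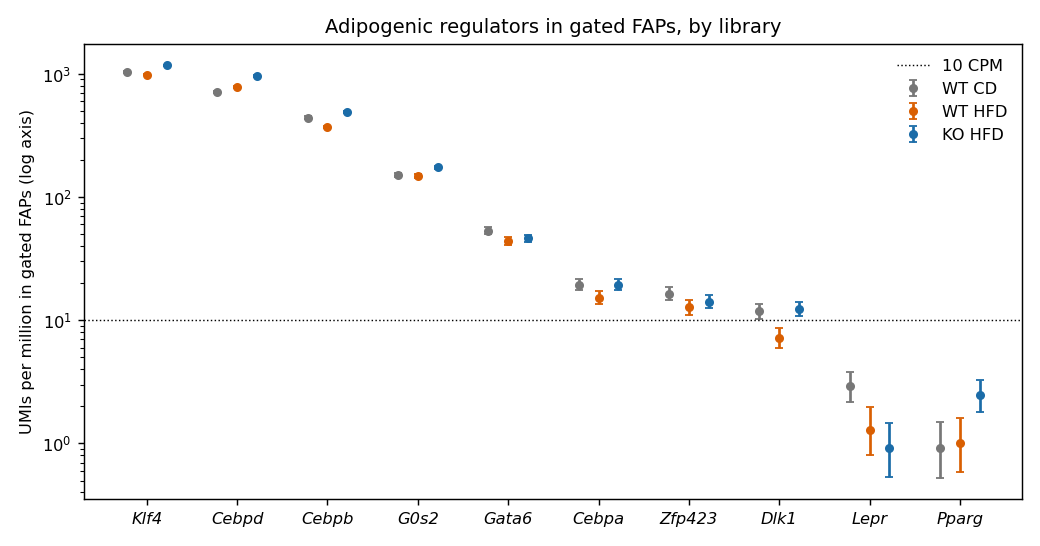
Level of each regulator in gated FAPs (CPM, log axis) in each library; points are the summed level of 1 library and bars are exact 95% Poisson intervals. *Klf4*, *Cebpd* and *Cebpb* sit above 300 CPM in every library, and *Lepr* and *Pparg* sit under the dotted line at 10 CPM.

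The share of FAPs with a UMI ran in a similar order, except that *Cebpd* stood above *Klf4* and *Pparg* above *Lepr*. Over all FAPs it was 95.2% for *Cebpd*, 93.8% for *Klf4*, 85.8% for *Cebpb*, 57.2% for *G0s2*, 26.3% for *Gata6*, 13.8% for *Cebpa*, 11.9% for *Zfp423*, 1.69% for *Dlk1*, 1.21% for *Pparg* and 0.723% for *Lepr*. With each FAP thinned to 3000 UMIs, which left out 79 shallower FAPs, the shares were 80.4% for *Cebpd*, 82.0% for *Klf4*, 60.7% for *Cebpb*, 33.4% for *G0s2*, 11.6% for *Gata6* and 5.31% for *Cebpa*, and *Zfp423* was found in 229 of 5729 cells. The *Ms4a1* and *Cd79a* B cell-like class, thinned in the same way from a median of 7180 UMIs against 8725 in FAPs, served as a class that should lack the mesenchymal genes. There the thinned shares were 5.08% for *Cebpd*, 0.781% for *G0s2*, 0.195% for *Cebpa* and for *Pparg*, and 0 of 512 cells for *Gata6*, *Zfp423*, *Dlk1* and *Lepr*. The *Pparg* share of thinned FAPs was 0.401%, and its interval of 0.255 to 0.602% overlapped that of the B cell-like class, which reached 1.08%. *Cebpb* and *Klf4* were found in 60.9% and 35.4% of thinned B cell-like cells, so for *Cebpb* the share in FAPs was not above that of this class.

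Of the 8 regulators with at least 10 CPM in either library, 1, *Dlk1*, differed by 1.5-fold or more between WT HFD and WT CD FAPs, where 1.82% of 8128 genes did. The same gene alone did so between KO HFD and WT HFD FAPs, where 0.934% of 8133 genes did. Both comparisons use the WT HFD library, so a departure of that library alone would enter them with opposite signs. The median log2 ratio of the 8 regulators was -0.26 for WT HFD against WT CD, beside 0.09 over all genes, and 0.27 for KO HFD against WT HFD, beside -0.04 over all genes. The 16 genes of a dissociation and immediate early list (*Fos*, *Jun*, *Egr1*, heat shock genes and others, without the regulators) had medians of -0.23 and 0.30 in the same 2 comparisons. The UMIs of that list made up 1.79%, 1.62% and 1.94% of FAP UMIs in WT CD, WT HFD and KO HFD. *Nr4a1* (log2 ratio 0.59 for KO HFD against WT HFD) and the heat shock genes *Hspa1a* (319, 159 and 227 CPM) and *Hspa1b* (266, 124 and 172 CPM), both lower in WT HFD than in WT CD, were its members past 1.5-fold. The part of this shift in the levels of the regulators was not tested.

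**Figure D2:**
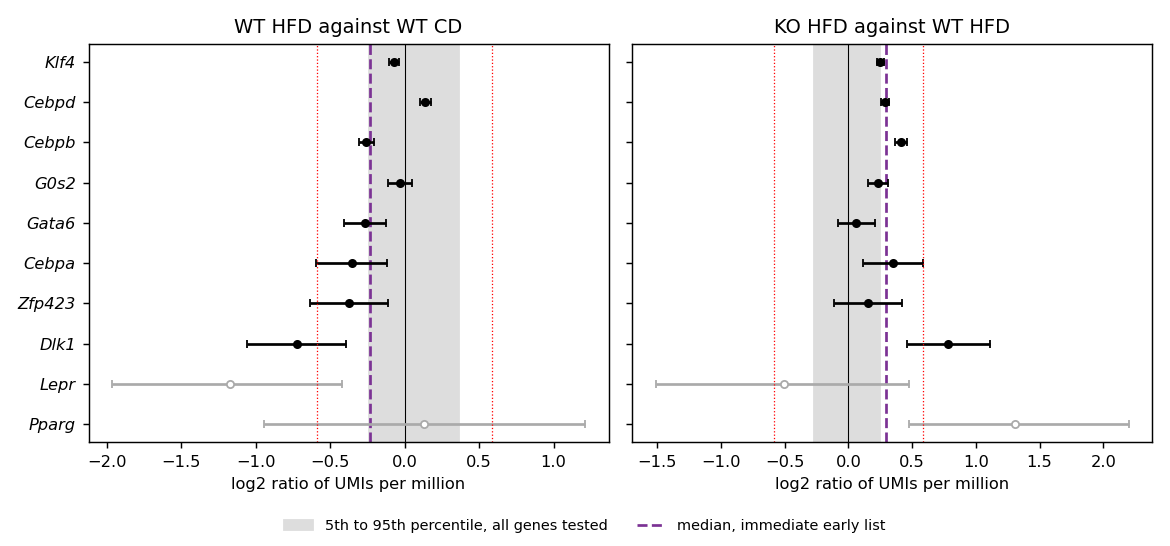
Log2 ratio of CPM in gated FAPs for each regulator, WT HFD against WT CD (left) and KO HFD against WT HFD (right), with exact 95% intervals for counting error. Filled points are genes that reached 10 CPM in either library, open points are below it, and the dotted red lines mark 1.5-fold and the grey band spans the 5th to 95th percentile of all genes tested. *Dlk1* is the only filled point past the lines, and the dashed line shows the median of the immediate early list at -0.23 and 0.30.

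*Klf4*, *Cebpb* and *Cebpd* form the early arm of the cascade. *Klf4* (chr4:55527143-55532466, minus strand, GRCm38), a zinc finger factor that activates *Cebpb*, gave a log2 ratio of -0.07 (-0.10 to -0.04) for WT HFD against WT CD and 0.25 (0.22 to 0.28) for KO HFD against WT HFD. *Cebpb* (chr2:167688915-167690418, plus strand) gave -0.26 (-0.30 to -0.21) and 0.42 (0.37 to 0.46). *Cebpd* (chr16:15887286-15891031, plus strand), which forms dimers with C/EBPβ, gave 0.14 (0.10 to 0.18) and 0.29 (0.25 to 0.32). These 3 genes were thus highest in the KO HFD library, and *Klf4* and *Cebpb*, but not *Cebpd*, were lowest in the WT HFD library, with every difference under 1.5-fold.

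The early regulators were higher in FAPs with more immediate early RNA. FAPs were divided at the pooled median share of that list, 1.70% of UMIs, into 2904 cells on either side. *Klf4* was at 1522 CPM above the median and 638 below it, *Cebpb* at 622 and 263, and *Cebpd* at 1013 and 645. The fold for *Klf4* was 2.36, 2.27 and 2.48, and for *Cebpb* it was 2.38, 2.12 and 2.47, so each library showed it. For *Zfp423* and *Gata6* the fold between the same FAPs was 1.06 and 1.08. Within the FAPs below the median, the log2 ratio of KO HFD to WT HFD was 0.03 for *Klf4*, 0.14 for *Cebpb* and 0.13 for *Cebpd*. Over all FAPs it was 0.25, 0.42 and 0.29. Below the median, the ratio of WT HFD to WT CD was 0.04 for *Klf4*, -0.07 for *Cebpb* and 0.26 for *Cebpd*. Over all FAPs it was -0.07, -0.26 and 0.14. The immediate early share also differed between the FAP states described below, from 1.12% to 2.46% of UMIs among the large ones. The division was thus not independent of state, and the part of either in these ratios was not tested.

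Promoter sequence is shown for *Cebpb* and *Klf4*, the abundant regulators that differed most between FAPs with a high and a low immediate early share. Both are the 250 bases before the transcription start in RefSeq (GRCm38.p6), at chr2:167688665-167688914 (plus strand) for *Cebpb* and chr4:55532476-55532725 (minus strand) for *Klf4*, written 5′ to 3′ along the gene. Capitals mark TGACG, the core of the cyclic AMP response element through which many immediate early genes are induced, or its complement CGTCA.
*Cebpb*: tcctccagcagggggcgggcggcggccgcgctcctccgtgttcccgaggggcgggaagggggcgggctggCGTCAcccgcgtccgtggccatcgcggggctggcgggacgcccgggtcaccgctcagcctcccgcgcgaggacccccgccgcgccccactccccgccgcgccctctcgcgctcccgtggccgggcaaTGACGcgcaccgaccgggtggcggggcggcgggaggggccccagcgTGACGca
*Klf4*: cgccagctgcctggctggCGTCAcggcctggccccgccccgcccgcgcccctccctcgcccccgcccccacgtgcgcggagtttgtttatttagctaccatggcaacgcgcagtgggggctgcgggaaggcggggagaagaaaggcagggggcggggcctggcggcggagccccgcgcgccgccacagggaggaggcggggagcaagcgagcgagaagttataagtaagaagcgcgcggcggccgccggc
The *Cebpb* window held TGACG at 3 places and the *Klf4* window at 1. On either strand these letters stood in the windows of 4 of the 8 regulators with a promoter in the table (*Cebpb*, *Klf4*, *Dlk1* and *G0s2*) and in 17.9% of all 27025 promoters. The AP-1 letters TGANTCA stood in none of the 8 windows and in 6.87% of all promoters, and the C/EBP palindrome TTGCNNAA stood in the *Zfp423* window alone, beside 9.55% of all promoters. A match describes the letters and is not a binding site.

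FAPs were divided into 7 states by k-means clustering on variable genes from which the regulators, the gene lists and genes differing between libraries had been left out. Of these, 5 held at least 100 cells and are called by marker sets or, where none of the set was among the 10 leading genes, by leading genes: *Cxcl14 Mme* (1307 cells), *Fmod Sfrp2 Tnmd* (896), *Dpp4 Sema3c* (1104), *Col6a5 Gdf10* (1152) and *Sfrp4 Spon2* (1309). The *Col6a5 Gdf10* state scored highest for the *Agt Ptx3 Has1* set (log2 ratio 2.49) and next for the *Gdf10 Rbp4 Penk* set (1.95), but its leading genes held none of the former and *Gdf10* and *Penk* of the latter. For *Sfrp4 Spon2* another set, *Dio2 Pthlh Col8a1*, came close (1.82 and 1.61). The other 2 states held 26 cells led by *Slpi* and *Upk3b*, mesothelial genes, and 14 cells led by *Ube2c* and *Cenpf*, genes of dividing cells.

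Summed over libraries, the early regulators were lowest in the *Sfrp4 Spon2* state of the 5. *Klf4* was at 602, 665 and 592 CPM there and between 1034 and 1383 CPM in each library of the other 4 large states. *Cebpb* was highest in the *Cxcl14 Mme* state, at 634, 545 and 682 CPM, and was between 286 and 355 CPM in the *Dpp4 Sema3c* and *Sfrp4 Spon2* states. *Cebpd* was also highest in the *Cxcl14 Mme* state, at 989, 1056 and 1273 CPM. The immediate early list made up 2.46% of UMIs in the *Cxcl14 Mme* state, 2.33% in *Fmod Sfrp2 Tnmd*, 2.12% in *Col6a5 Gdf10*, 1.35% in *Dpp4 Sema3c* and 1.12% in *Sfrp4 Spon2*, an order close to that of *Cebpb*. *Klf4* departed from it in the *Dpp4 Sema3c* state, where it was at 1220.1, 1145 and 1256 CPM. Within each large state, *Cebpd* was higher in KO HFD than in WT HFD in 5 of 5 states (log2 ratios 0.11 to 0.34). *Cebpb* and *Klf4* were higher in 4 of 5, with *Cebpb* spanning -0.04 to 0.67 and *Klf4* -0.17 to 0.39.

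Over all 7 states, 3 regulators (*Cebpa*, *G0s2* and *Gata6*) were at least 2-fold higher in their highest state than in the mean of the others and had the same highest state in all 3 libraries, where 19.6% of 10463 genes were. With the 5 large states alone the count was 2 (*Cebpa* and *G0s2*), where 8.28% of 8739 genes were. *Gata6* was counted over 7 states through the *Slpi Upk3b* cells, where it was at 123, 278 and 306 CPM in 7, 12 and 7 cells. The states share libraries and are not replicates of each other.

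**Figure D3:**
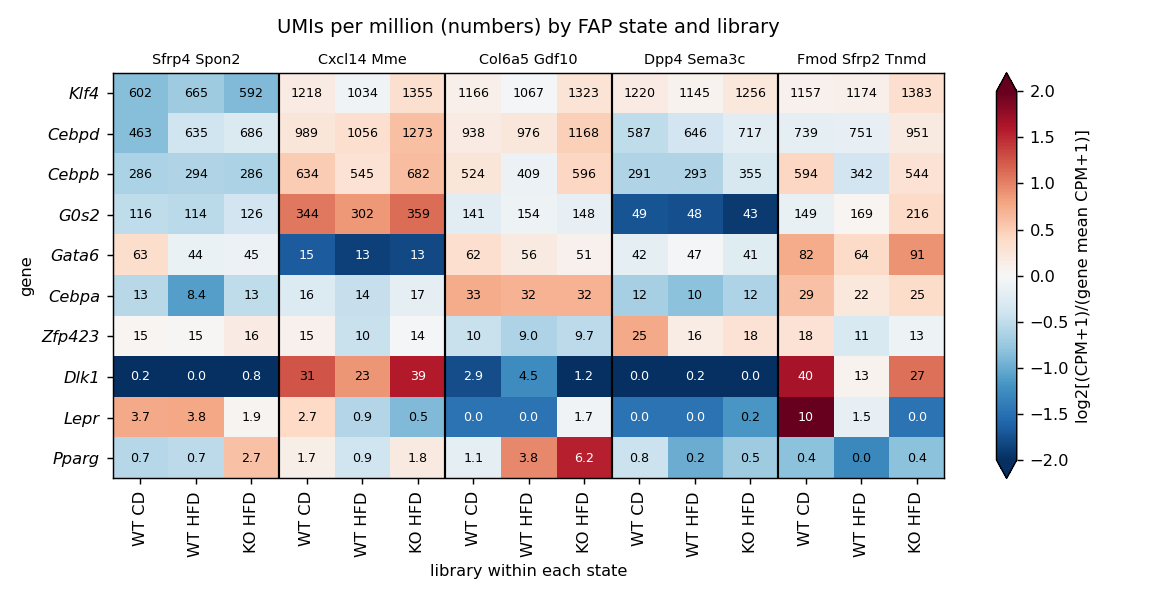
Level of each regulator (printed numbers, CPM) in the 5 large FAP states, with the 3 libraries side by side in each; colour is the log2 ratio to the mean of the gene's 15 values after adding 1 CPM. *G0s2* is highest in the 3 *Cxcl14 Mme* columns, *Cebpa* in the 3 *Col6a5 Gdf10* columns, and *Dlk1* is near 0 in the *Dpp4 Sema3c* and *Sfrp4 Spon2* columns.

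*Pparg* (chr6:115360951-115490399, plus strand) encodes the nuclear receptor without which no fat cell forms. It gave 16, 17 and 46 UMIs in WT CD, WT HFD and KO HFD FAPs, found in 15, 17 and 38 cells. These counts correspond to 0.913 CPM (0.522 to 1.48), 0.999 CPM (0.582 to 1.60) and 2.47 CPM (1.81 to 3.29). The KO HFD level lay above the intervals of both WT libraries, with a log2 ratio of 1.30 (0.47 to 2.20) to WT HFD, but every level was under the 10 CPM at which a gene was counted. The *Col6a5 Gdf10* state held 40 of the 79 *Pparg* UMIs, with 4, 10 and 26 in WT CD, WT HFD and KO HFD, or 1.14, 3.75 and 6.17 CPM. *Cebpa* was at 42.3 CPM in the 70 *Pparg*-positive FAPs, beside 17.7 CPM in the other FAPs. By library the level in *Pparg*-positive FAPs was 19.0, 36.5 and 53.6 CPM. In WT CD this was not above the 19.5 CPM of the other FAPs. The fold to the other FAPs was 2.43 in WT HFD and 2.88 in KO HFD. Of the 31 *Cebpa* UMIs in *Pparg*-positive FAPs, 27 lay in the *Col6a5 Gdf10* state. Within that state *Cebpa* was at 76.6 CPM in 34 *Pparg*-positive and 30.5 CPM in 1118 other FAPs. In the 15 *Pparg*-positive *Cxcl14 Mme* FAPs *Cebpa* gave 3 UMIs, and in the 15 of the *Sfrp4 Spon2* state 1. *Gdf10*, a leading gene of the *Col6a5 Gdf10* state, was found in 29 of the 70. *Adipoq* was found in none, but the 4 adipocyte markers gave 9 UMIs in 2 KO HFD cells (12.3 CPM, beside 0.744 CPM in *Pparg*-negative FAPs), 1 of them *Plin1* and the rest *Car3*, and *Fabp4* gave 15 in 4 cells, 13 of them in 2 KO HFD cells. A single *Pparg*-positive WT CD cell carried 82 UMIs of the mural list (smooth muscle and pericyte genes) including 48 of *Myh11*. Apart from that cell, the mural UMIs of *Pparg*-positive FAPs came to 4 in WT HFD and 9 in KO HFD.

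*Cebpa* (chr7:35119293-35121928, plus strand), the partner of *Pparg* in terminal differentiation, was at 19.5 CPM (17.5 to 21.6), 15.2 CPM (13.4 to 17.2) and 19.4 CPM (17.4 to 21.5). The WT HFD interval lay under both others, and the log2 ratios were -0.35 (-0.59 to -0.12) and 0.35 (0.11 to 0.58). The *Col6a5 Gdf10* state held it at 32.9, 31.5 and 31.8 CPM, 2.01-fold above the mean of the other large states, followed by the *Fmod Sfrp2 Tnmd* state at 29.4, 22.3 and 25.1 CPM. The lowest level in a large state was 8.44 CPM, in the *Sfrp4 Spon2* state of the WT HFD library. The direction of the library difference was shared by the large states: *Cebpa* was lower in WT HFD than in WT CD in 5 of 5 and higher in KO HFD than in WT HFD in 5 of 5, the smallest of these log2 ratios being 0.01. All 10 of these intervals within a state span 0, so the difference was not detectable in any single state at this depth. *Cebpa* is also high in macrophages, whose 5 markers summed to 31.4, 34.6 and 13.8 CPM in gated FAPs, led by *Lyz2* in the WT libraries and *Cd68* in KO HFD. Their part in the *Cebpa* values was not tested.

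*G0s2* (chr1:193272161-193273217, minus strand), a target of PPARγ, gave log2 ratios of -0.03 (-0.11 to 0.05) and 0.23 (0.16 to 0.31) between libraries. Among FAPs below the median immediate early share the KO HFD to WT HFD ratio was -0.07. It differed far more between states. The *Cxcl14 Mme* state held 344, 302 and 359 CPM, 2.72-fold above the mean of the other large states, and the *Dpp4 Sema3c* state held 49.0, 48.4 and 43.4 CPM. The *Cxcl14 Mme* values lay above those of every other state in all 3 libraries. *G0s2* therefore marked the *Cxcl14 Mme* FAPs in each library although *Pparg* gave 15 UMIs there in 1307 cells.

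Genes downstream of PPARγ were mostly at the bottom of the range. Of a list of 22 targets and adipocyte genes, 7 reached 10 CPM in FAPs. Between WT HFD and WT CD, 2 of them were past 1.5-fold, both higher, where 0.861% of all genes were higher: *Fabp4*, a fatty acid carrier, at 5.48, 24.4 and 6.33 CPM, and *Angptl4*, an inhibitor of lipoprotein lipase, at 14.2, 56.5 and 41.9 CPM. Between KO HFD and WT HFD, *Fabp4* alone was past it, with a log2 ratio of -1.95 (-2.25 to -1.65), where 0.357% of all genes were lower. The 96, 415 and 118 *Fabp4* UMIs lay in 50, 69 and 65 FAPs. *Fabp4* was at 14737, 20897 and 17544 CPM in the endothelial-like class, whose 4 markers summed to 4.91, 6.76 and 6.60 CPM in FAPs with *Pecam1* at 0 by the gate. The 4 lymphatic endothelial markers summed to 3.88, 7.23 and 3.81 CPM, highest in WT HFD as *Fabp4* was. They were led by *Prox1* in WT CD and KO HFD and by *Lyve1* in WT HFD, with *Mmrn1* at 0 in WT CD and KO HFD. Of the 123 lymphatic UMIs in WT HFD, 60 lay in 1 *Lepr*-positive FAP. In *Lepr*-negative FAPs the markers summed to 3.94, 3.73 and 3.82 CPM, but the level of *Fabp4* was not taken for those FAPs alone. In the macrophage-like cluster led by *Folr2* and *Ccl12*, *Fabp4* was at 26.8, 173 and 109 CPM. The 5 macrophage markers summed to 31.4, 34.6 and 13.8 CPM in FAPs. The part of endothelial, lymphatic and macrophage RNA in the *Fabp4* values was not tested. *Lpl*, lipoprotein lipase, was the most abundant gene of the list, at 485, 616 and 597 CPM and with UMIs in 89.7%, 93.0% and 92.1% of FAPs. *Scd1* (74.6, 64.7 and 64.7 CPM) and *Fasn* (28.3, 21.6 and 21.6 CPM), enzymes of fatty acid synthesis, were next among those not past 1.5-fold.

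*Zfp423* (chr8:87661810-87959595, minus strand) was at 16.4 CPM (14.6 to 18.5), 12.7 CPM (11.1 to 14.5) and 14.1 CPM (12.5 to 15.9), with a log2 ratio of -0.37 (-0.63 to -0.11) for WT HFD against WT CD and 0.15 (-0.11 to 0.42) for KO HFD against WT HFD. The second interval spans 0, so this difference was not detectable at this depth. It was highest in the *Dpp4 Sema3c* state, at 25.1, 16.0 and 17.8 CPM, and lowest in the *Col6a5 Gdf10* state, at 10.3, 9.01 and 9.73 CPM. The order of these 2 states was thus the reverse of that of *Cebpa*, which was at 11.7, 10.5 and 12.1 CPM in the *Dpp4 Sema3c* state.

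*Gata6*, a GATA family zinc finger factor, was at 53.0 CPM (49.7 to 56.6), 44.1 CPM (41.0 to 47.4) and 46.1 CPM (43.1 to 49.3). Its log2 ratios were -0.27 (-0.41 to -0.13) and 0.06 (-0.08 to 0.21). The former turned to 0.43 with 7 FAP states weighted alike, and the latter to -0.04 with every FAP thinned to 3000 UMIs. The large states separated *Gata6* more clearly. *Gata6* was at 82.5, 63.9 and 91.5 CPM in the *Fmod Sfrp2 Tnmd* state and at 14.6, 12.6 and 13.2 CPM in the *Cxcl14 Mme* state, in which *G0s2* was highest. The other 3 large states lay between 41.1 and 62.5 CPM. Its relatives *Gata2* and *Gata3*, both known inhibitors of adipogenesis, stayed under 1 CPM in each library.

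Few other regulators of fat cell formation were past 1.5-fold between libraries. Among all genes the share past it was 1.82% between WT HFD and WT CD and 0.934% between KO HFD and WT HFD. Counts at or near 0 in lists of this size therefore do not set these genes apart. Of 22 pro-adipogenic regulators, 17 reached 10 CPM, and *Zfp467* alone was past 1.5-fold between WT HFD and WT CD, at 19.0, 12.4 and 17.8 CPM. None was past it between KO HFD and WT HFD, where *Egr2*, which acts with KLF4 upstream of *Cebpb*, had the highest log2 ratio of the list, 0.58. The most abundant others, *Igf1* (439, 410.5 and 468 CPM), *Ebf1* (436, 513 and 477 CPM) and *Klf9* (416, 424 and 457 CPM), stayed within a log2 ratio of 0.24 in both comparisons. Of 23 anti-adipogenic regulators, 18 reached 10 CPM and none was past 1.5-fold in either comparison. *Klf2* (394, 458 and 428 CPM), *Hes1* (151, 145 and 154 CPM) and *Ctnnb1*, the β-catenin gene (147, 154 and 153 CPM), were the most abundant of them. Medians of the pro- and anti-adipogenic lists were 0.06 and 0.05 for WT HFD against WT CD and 0.01 and 0.01 for KO HFD against WT HFD. Of 3 other C/EBP genes counted, among them *Cebpg* (53.4, 57.3 and 57.6 CPM) and *Ddit3* (60.1, 47.8 and 58.6 CPM), none was past 1.5-fold, nor was any of 8 glucocorticoid-responsive genes, of which the metallothionein gene *Mt1* was the most abundant (1606, 1658 and 2136 CPM). *Ddit3* is on the anti-adipogenic list as well.

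Some genes of these lists differed between the large states. The *Fmod Sfrp2 Tnmd* state, where *Gata6* was highest, was also highest for the pro-adipogenic genes *Fgf10* (33.2 CPM), *Ppargc1a* (10.8 CPM) and *Klf5* (10.4 CPM) and for *Tcf7l2* (307 CPM), a mediator of Wnt signalling on the anti-adipogenic list. *Egr2* was highest in the *Cxcl14 Mme* state (62.1 CPM), as *Cebpb* and *Cebpd* were. *Wnt10b*, a Wnt ligand that blocks *Pparg* and *Cebpa*, was at 26.6 CPM in the *Dpp4 Sema3c* state, the highest for *Zfp423* also, and averaged 1.39 CPM elsewhere. In all, 4 of 21 counted pro-adipogenic and 2 of 19 counted anti-adipogenic genes were past 2-fold between the large states with the same highest state in all 3 libraries, where 8.28% of all genes were, and none of the counted genes of the other lists met both conditions. *Klf15* (13.4 CPM) and *Fabp4* (14.96 CPM) were past 2-fold in the *Fmod Sfrp2 Tnmd* state, but not with the same highest state in every library.

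*Dlk1* (chr12:109452823-109463336, plus strand) was confined to few FAPs in each library. It gave 207, 122 and 230 UMIs, or 11.8 CPM (10.3 to 13.5), 7.17 CPM (5.96 to 8.56) and 12.3 CPM (10.8 to 14.04). These lay in 34, 28 and 36 FAPs, shares of 1.76%, 1.57% and 1.72%, so the share of *Dlk1*-positive FAPs differed less between libraries than the level did. A *Dlk1*-positive FAP held a mean of 6.09, 4.36 and 6.39 UMIs, and the highest cell 15, 19 and 27. The 10 cells with the most *Dlk1* held 56.0%, 73.8% and 66.5% of its UMIs. The intervals treat UMIs as independent and are too narrow for a gene held by so few cells. The log2 ratios were -0.72 (-1.06 to -0.39) for WT HFD against WT CD and 0.78 (0.46 to 1.11) for KO HFD against WT HFD. With the 5 highest cells of each library left out they were -1.20 and 1.03. In that setting *Dlk1* was under 10 CPM in each library and was no longer counted. Under a stricter gate of at least 2 *Pdgfra* and 10 *Dcn* UMIs the log2 ratios were -0.28 and 0.61, the former under 1.5-fold, and among FAPs below the median immediate early share they were -1.33 and 1.17.

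**Figure D4:**
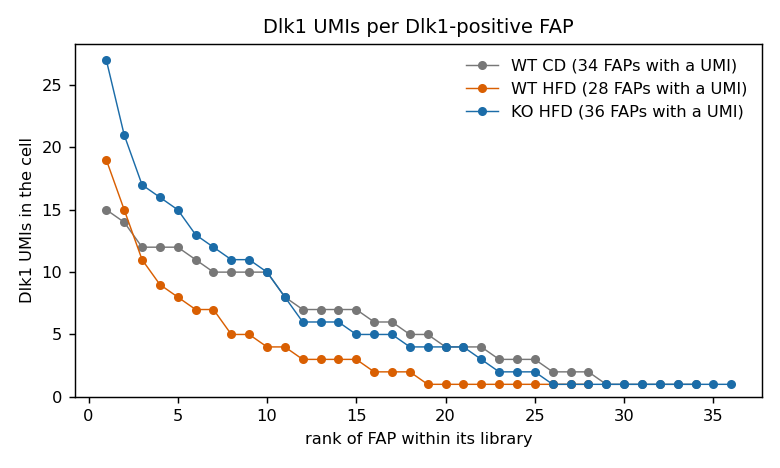
*Dlk1* UMIs in each *Dlk1*-positive FAP, ranked within its library, for WT CD (34 cells), WT HFD (28 cells) and KO HFD (36 cells). Each point is 1 cell. The highest cells hold 15, 19 and 27 UMIs, and the WT HFD line falls to 1 UMI at a lower rank than the others.

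*Dlk1*-positive FAPs fell into particular states. The *Cxcl14 Mme* state held 326 of the 559 UMIs and the *Fmod Sfrp2 Tnmd* state 200, whereas the *Dpp4 Sema3c* state held 1 in 1104 cells and the *Sfrp4 Spon2* state 4 in 1309 cells. The level was 30.6, 23.4 and 38.7 CPM in the *Cxcl14 Mme* state and 40.3, 12.9 and 27.5 CPM in the *Fmod Sfrp2 Tnmd* state, so the WT HFD library was lowest in both. In the *Col6a5 Gdf10* state, with 27 UMIs in all, it was highest, at 2.86, 4.50 and 1.19 CPM. *Dlk1* was also 3.15-fold higher in the FAPs above the median immediate early share than in those below it, at 16.3 and 5.17 CPM. The *Cxcl14 Mme* and *Fmod Sfrp2 Tnmd* states had the highest immediate early shares, 2.46% and 2.33% of UMIs, so this fold was not separated from state. The 5 mural markers, a class in which *Dlk1* had a mean of 6.87 CPM, summed to 28.0, 15.6 and 29.2 CPM in gated FAPs, lowest in WT HFD as *Dlk1* was, led by *Acta2* in WT CD and KO HFD and by *Abcc9* in WT HFD. In the *Dlk1*-positive FAPs themselves they summed to 13.9 CPM, beside 24.6 CPM in *Dlk1*-negative FAPs. The part of mural RNA in the library difference was not tested.

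Imprinted neighbours of *Dlk1* were among the genes at higher levels in the cells that held it. *Meg3* and *Rian*, maternally expressed noncoding RNAs of the same imprinted domain, were at 937 and 306 CPM in the 98 *Dlk1*-positive FAPs and at 351 and 87.0 CPM in the 5710 others, whose median depths were 7520.5 and 8743 UMIs. For *Meg3* the fold was 3.24, 2.38 and 2.42, and for *Rian* it was 4.71, 3.07 and 2.92. Part of this followed the states: within the *Cxcl14 Mme* state the folds were 2.31 for *Meg3* and 2.86 for *Rian*, and within the *Fmod Sfrp2 Tnmd* state 1.55 and 1.77. *Mirg*, a further transcript of the domain, gave 9 UMIs in *Dlk1*-positive FAPs and was lower there than in the others in WT HFD (3.90 and 6.09 CPM) and higher in WT CD and KO HFD. Genes outside the domain, chosen after their values were seen, had larger folds than *Meg3*, among them *Rasgrp2* (7.07), *Apod* (4.58), *Cxcl14* (4.35) and *Apoe* (3.98). *Mest*, an imprinted gene of another chromosome chosen after its values were seen, was at 116 CPM in *Dlk1*-positive and 39.4 CPM in *Dlk1*-negative FAPs. Between libraries *Meg3* (375, 335 and 369 CPM) and *Rian* (90.2, 87.7 and 92.8 CPM) were both under 1.5-fold.

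*Lepr* (chr4:101717404-101815352, plus strand) was at the low end in FAPs. It gave 51, 22 and 17 UMIs in 25, 9 and 8 cells, or 2.91 CPM (2.17 to 3.83), 1.29 CPM (0.811 to 1.96) and 0.912 CPM (0.531 to 1.46). WT CD was above both HFD libraries, which overlapped each other, at levels too low to be counted. Most of the WT CD excess lay in the *Fmod Sfrp2 Tnmd* state, where 13 of 325 WT CD cells held 26 UMIs, beside 3 UMIs in WT HFD and 0 in 330 KO HFD cells. The *Sfrp4 Spon2* state held 17, 16 and 7 UMIs and the *Cxcl14 Mme* state 8, 3 and 2. The *Lepr*-positive cells were not of 1 kind. In WT CD, 3 of the 25 held 80 of the library's 81 FAP UMIs of *Wif1*, a secreted Wnt inhibitor, and *C1qtnf3* gave 202 UMIs, also in 3 cells. *Comp*, a gene of tendon and cartilage matrix, was at 386 CPM in the *Lepr*-positive WT CD FAPs (97 UMIs in 4 cells) and 10.8 CPM in the others, and the tenocyte markers were at 99.5 and 38.1 CPM, with UMIs in 10 of the 25 cells. *Tnmd*, a leading gene of the *Fmod Sfrp2 Tnmd* state that held 13 of the 25, made up 34.9 of the 38.9 CPM of these markers in all WT CD FAPs. *Lepr* had its rank 2 in the tenocyte-like class, at 43.2, 10.8 and 0 CPM in 17, 18 and 16 cells. The part of tenocyte and lymphatic RNA in the *Lepr* values was not tested. In WT HFD, 1 of the 9 held 60 UMIs of the lymphatic endothelial markers, 41 of them *Lyve1*, with *Prox1*, the factor that defines lymphatic endothelium, at 0. These genes were chosen after their values were seen. All 5 genes of the leptin receptor list reached 10 CPM in FAPs, a floor that 8128 genes reached in WT CD or WT HFD. *Socs3* was at 313, 329 and 374 CPM, *Stat3* at 101, 113 and 116 CPM and *Jak2* at 27.0, 26.4 and 28.9 CPM. None of the 5 was past 1.5-fold. Signalling through the receptor was not tested. *Socs3* is also on the immediate early list. *Lep*, the ligand, gave 1 UMI over all FAPs.

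Other diaphragm cells held several of these genes at higher levels than FAPs. Among 18 cell classes, with the mean of the 3 libraries as the level, 1 of the 10 regulators was highest in gated FAPs (*Dlk1*), where 4.7% of 12792 genes were. That rank was narrow, since *Dlk1* was at 10.4 CPM in FAPs (7.17 to 12.3 over the libraries) and 10.1 CPM in muscle stem cell (MuSC)-like cells (1.90 to 16.9), a wider range than the gap between them. *Zfp423* had rank 2 in FAPs at 14.4 CPM (12.7 to 16.4) after the lymphatic endothelial-like class at 15.6 CPM (10.2 to 22.2), and these ranges overlapped. *Gata6*, *Cebpd* and *G0s2* had rank 3. *Gata6* was highest in mesothelial-like cells at 230 CPM (211 to 265), *Cebpd* in MuSC-like cells at 2297 CPM (2164 to 2380.1) and *G0s2* in neutrophil-like cells at 2645 CPM (1001 to 3725), none of which overlapped the range in FAPs. *Klf4* had rank 4 in FAPs after the lymphatic endothelial-like, endothelial-like and tenocyte-like classes, all of whose ranges overlapped its own.

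The terminal regulators, *Pparg* and *Cebpa*, were higher in several other classes than in FAPs. *Pparg* was at 69.7 CPM in monocyte-like and 62.3 CPM in endothelial-like cells and at 1.46 CPM in FAPs, rank 9. *Cebpa* was highest in 3 macrophage-like clusters at 101, 81.1 and 58.5 CPM, with FAPs at 18.0 CPM, rank 7. The early regulator *Cebpb* was highest in neutrophil-like cells at 6098 CPM, with FAPs at rank 14. *Lepr* was highest in the lymphatic endothelial-like class at 44.2 CPM. As FAPs held 51.7% of all UMIs, a gene spread evenly would have that share of its UMIs in them. The share was 80.1% for *Zfp423*, 80.1% for *Dlk1*, 76.4% for *G0s2*, 72.2% for *Gata6*, 64.0% for *Klf4*, 61.0% for *Cebpd*, 38.2% for *Cebpb*, 37.4% for *Cebpa*, 35.7% for *Lepr* and 12.2% for *Pparg*. For *Lepr* it was 56.0%, 29.7% and 19.5% by library.

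**Figure D5:**
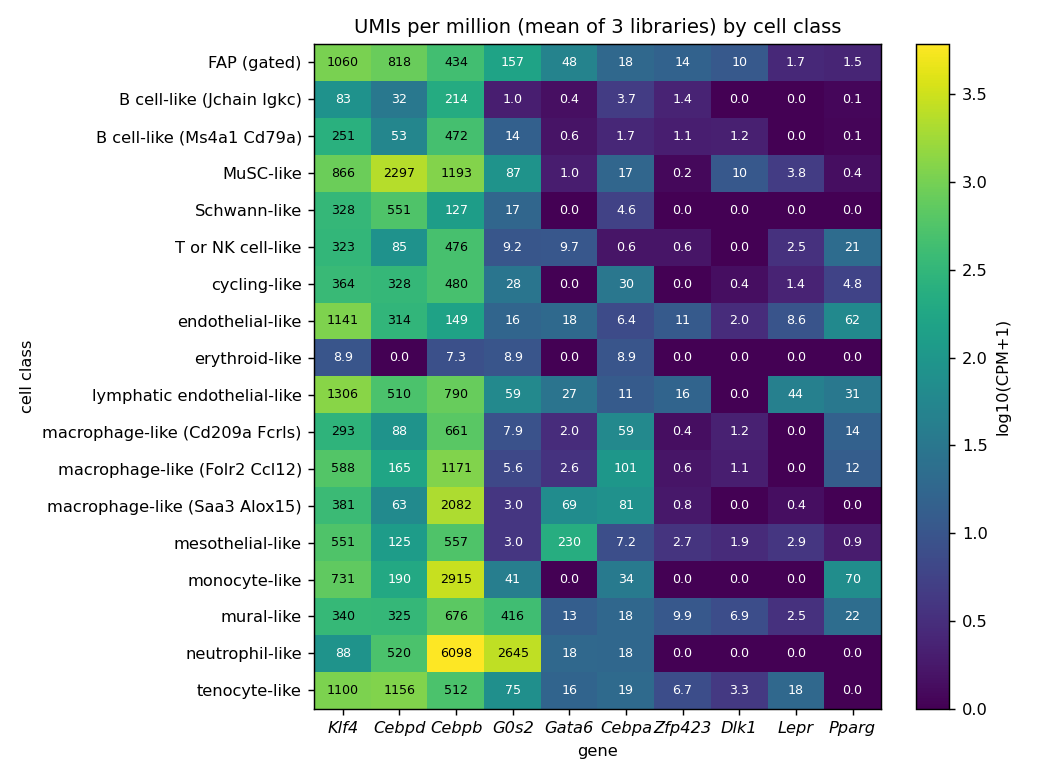
Level of each regulator (printed numbers, CPM, mean of the 3 libraries) in gated FAPs and 17 other cell classes named by their markers; colour is log10 of the level plus 1. *Pparg* is at 1.5 CPM in FAPs and above 60 CPM in monocyte-like and endothelial-like cells, and *Gata6* is highest in mesothelial-like cells at 230 CPM.

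For the 5 regulators of at least 50 CPM in 1 state and library, the genes with the most similar pattern were sought over the 15 sums of 5 large states and 3 libraries, among 3620 genes, by Pearson's r of log2(CPM + 10). *G0s2* was most like *Gstt1* (r = 0.98), *D630003M21Rik* (0.97) and *Lsamp* (0.96). *Gata6* was most like *Gabra3* (0.98), *Plce1* (0.96) and *Mmp23* (0.95). *Cebpb* was most like *Btg2* (0.96), which is on the immediate early list, *H3f3b* (0.96) and *Tra2a* (0.95). *Cebpd* was most like *Ifi203* (0.94), *Phlda1* (0.92) and *Egr2* (0.91), and *Klf4* like *Wsb1* (0.94), *Midn* (0.93) and *Larp4* (0.93). The 15 sums share 3 libraries and 5 states, so they are not independent and these values are descriptions. *Cebpb*, *Cebpd* and *Klf4* thus shared none of their 3 most similar genes.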

How the data were processed

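Mononuclear cells of the diaphragm were profiled with 10x Genomics 3′ chemistry. The authors aligned reads to GRCm38 (mm10 in the submitters' processing notes, with Cell Ranger 6.1.1) and deposited whole-number UMI counts per gene and cell, without normalization. All 12275 barcodes were used. Depth was 31967976 to 36478779 UMIs per library, so counting intervals are narrow in FAPs and wider in classes with few cells.

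Counts were processed in Python 3.11.15 with scanpy 1.11.5 and leidenalg 0.10.2. Leiden clustering at resolution 1 used 2000 variable genes, 30 components and 15 neighbours, and clusters were named "-like" from markers. FAP states came from k-means on 10 components, with 239 genes left out. CPM is a gene's UMIs over the cells of a sum per 1000000 of their UMIs. Intervals are exact Poisson for levels, Clopper-Pearson for shares and conditional binomial for ratios. With 1 library per group no test was made. Genes under 10 CPM in both libraries were not counted for a fold. No doublets were removed outside 1 alternative (Scrublet). TMM factors (edgeR 4.0.16) were another. The calculations were tested on simulated data.

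The members and gene lists were chosen with earlier results of these data known. Named were all 10 regulators, list genes past 1.5-fold between libraries, past 2-fold between states or among the 3 most abundant others, and the 3 genes most alike in pattern. Some list genes, among them *Jak2*, *Egr2*, *Gata2* and *Gata3*, were named outside this rule. States were called by marker sets or leading genes. Promoter sequences are from RefSeq (GRCm38.p6) and gene coordinates from GENCODE.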

Additional observations from a re-analysis of the deposited data

How the results depend on the processing

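No paired analysis was possible because each group is 1 library. *Dlk1* was the only regulator past 1.5-fold in both library comparisons. For WT HFD against WT CD the count of 1 became 0 with the stricter gate, with 7 FAP states weighted alike, among FAPs below the median immediate early share, at a floor of 50 CPM and without the 5 FAPs of each library with the most UMIs of the gene, and 2 when FAPs were thinned to 3000 UMIs (*Cebpa* and *Dlk1*) or with no floor (*Dlk1* and *Lepr*), where 3.51% and 18.6% of all genes were past 1.5-fold. For KO HFD against WT HFD it became 0 in the same settings except the stricter gate, where it stayed 1, and 2 with thinning (*Cebpa* and *Dlk1*) or no floor (*Pparg* and *Dlk1*), where 1.87% and 17.3% of all genes were. Among FAPs below the median immediate early share and without the 5 highest FAPs, *Dlk1* was uncounted because its level was under 10 CPM in every library, while its log2 ratios were farther from 0 (-1.33 and 1.17 in the former, -1.20 and 1.03 in the latter). At the 50 CPM floor it was under the floor by construction. The log2 ratio of *Dlk1* kept its sign in all 12 settings that could move it, between -1.33 and -0.28 for WT HFD against WT CD (-0.28 with the stricter gate) and between 0.46 and 1.17 for KO HFD against WT HFD. Over those settings the sign changed in at least 1 for 3 of the 10 regulators (*Klf4*, *G0s2* and *Gata6*) in the former comparison and for 2 (*G0s2* and *Gata6*) in the latter. TMM scaling moved the median of all genes from 0.09 to 0.02 for WT HFD against WT CD.

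The count of regulators past 2-fold between states, 3 as reported, was 2 to 4 in the alternatives, with *G0s2* among them in each, while the share of all genes ran from 8.28% (5 large states) to 26.7% (50 CPM floor). *Cebpa* was lost with k = 9, with Leiden clustering and at the 50 CPM floor, and *Gata6* with Leiden clustering and with the 5 large states. *Klf4* entered with k = 9, *Dlk1* with k = 9 and Leiden clustering, and *Zfp423* with all variable genes and with doublets removed. Highest in FAPs among the classes were 1 as reported, 0 at Leiden resolution 2, and 2 with Scrublet doublets removed (*Zfp423* and *Dlk1*). Of 74 list genes counted, 5 were past 1.5-fold for WT HFD against WT CD, and 8 of 75 with 7 states weighted alike, where the share of all genes went from 1.82% to 14.3%. The causes of these shifts were not tested. The settings that left out the highest cells, used the 5 large states or kept gated cells of FAP-like clusters were chosen after seeing the data. Depth limits *Pparg*, *Lepr* and *Dlk1* most, which rest on 79, 90 and 559 UMIs, and 1 library per group leaves variation between animals unmeasured.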
